A study of Saccharomyces cerevisiae with 2 samples.

Results

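The histone genes of budding yeast were described here from ribosome footprints of 1 strain of Saccharomyces cerevisiae, labelled yJC2229. The members are 10 genes picked by name: HTA1 and HTA2 for H2A, HTB1 and HTB2 for H2B, HHT1 and HHT2 for H3, HHF1 and HHF2 for H4, HTZ1 for the variant H2A.Z, and HHO1 for the linker histone. All 10 are among the 4579 genes of the deposited table, and all 10 had at least 100 footprints and 100 reads, as had 2939 genes in all. The study has 2 libraries, 1 of ribosome footprints and 1 of total RNA. Cells grew in YPD, a rich medium, with 2% glucose at pH 6.5 and 24 °C, were taken in mid-log phase, and had no pretreatment. Cycloheximide, which halts ribosomes, was present when cells were lysed, and footprints came from the 80S fraction of a sucrose gradient. The labels give no genotype beyond the strain name, and no replicate of either library.

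Histones are the proteins around which DNA is wrapped. The nucleosome core holds equal numbers of H2A, H2B, H3 and H4, while a linker histone binds DNA near its entry into the core. In yeast each core histone is encoded by a pair of genes, and the genes stand in divergent couples, an H2A gene beside an H2B gene and an H3 gene beside an H4 gene, each couple with its promoter between. The core genes are transcribed mainly in S phase, when DNA is copied, and their mRNAs carry poly(A) tails, unlike most animal histone mRNAs. H2A.Z replaces H2A in nucleosomes near promoters and is put there by the SWR1 complex.

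The footprint library held 3756929 footprints and the abundance column stood for 21353772 reads in the listed genes. The 10 histone genes took 24745 footprints (0.659% of the library) and 58987 reads (0.276%). The abundance column is headed FPKM, but its values are whole multiples of 0.0459 CPM, so they were turned back into reads, and the header does not say which library they came from. The footprint to read ratio below is a gene's share of all footprints over its share of these reads. It is the usual translational efficiency only if the reads are those of the total RNA library. With 1 library of each kind no p-value could be had, and all 95% intervals cover counting error at most. Cells were not sorted by cycle stage, so a smaller share of cells in S phase and less histone RNA per cell cannot be told apart.

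The 8 core histone genes were all far above the median gene and spread among themselves. Per codon of coding sequence, HTB1 held 41.8 footprints (95% interval 40.7 to 42.9), HTA1 23.8, HHF2 23.5, HHT2 23.4, HHT1 22.5, HTA2 19.3, HTB2 16.6 and HHF1 13.8. HTB1 stood above the other genes, and the intervals of each pair of neighbours from HTA1 to HHT1 overlapped. Below these, HTA2, HTB2 and HHF1 each differed from the next by more than their intervals. The median of all 4579 genes was 0.399 footprints per codon, and HTB1 was 115th and HHF1 215th of them.

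The order of the reads was another one. HTA1 led with 67.9 reads per codon (66.5 to 69.3), followed by HHT2 with 64.4, HHT1 with 59.2, HTA2 with 56.6, HTB1 with 54.2, HHF2 with 54.1, HHF1 with 44.9 and HTB2 with 37.1. HTB1, first in footprints, thus stood below 4 other histone genes in reads, and its interval overlapped those of HTA2 and HHF2. The median of all genes was 3.36 reads per codon. In whole counts, HTB1 had 5521 footprints and 7157 reads, HTA1 3163 footprints and 9026 reads, and HHF1 1431 footprints and 4669 reads.

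The variant and the linker histone were far below the core genes in footprints and in reads. HTZ1 held 2.58 footprints (2.31 to 2.86) and 9.81 reads per codon, from 348 footprints and 1324 reads. HHO1 held 3.09 footprints (2.88 to 3.31) and 7.04 reads per codon, from 800 footprints and 1823 reads over 259 codons. HHO1 was thus above HTZ1 in footprints and below it in reads. Set against H2A summed over both its genes, H2A.Z had 0.0599 times the footprints per codon (0.0536 to 0.0667) and 0.0788 times the reads per codon (0.0745 to 0.0834). Against H3 summed in the same way, the linker histone had 0.0674 times the footprints per codon (0.0625 to 0.0725) and 0.0569 times the reads per codon (0.0542 to 0.0598).

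**Figure D1:**
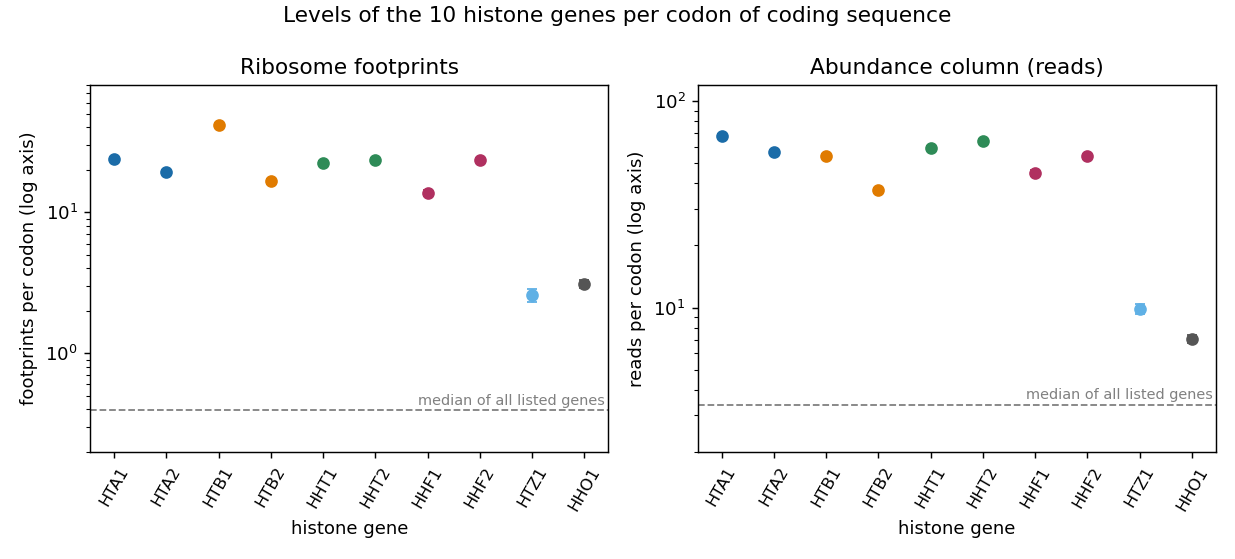
Footprints per codon (left) and reads per codon of the abundance column (right) of the 10 histone genes, on log axes. Bars are exact Poisson 95% intervals, mostly smaller than the points, and the dashed line is the median of all listed genes. The 8 core genes lie between 13.8 and 41.8 footprints per codon, above HTZ1 at 2.58 and HHO1 at 3.09.

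Since a nucleosome core uses the 4 core histones in equal numbers, footprints per codon were summed over both copies of each. H2B had the most, 58.5 (57.2 to 59.8), then H3 with 45.8 (44.7 to 47.0), H2A with 43.1 (42.0 to 44.2) and H4 with 37.2 (36.1 to 38.4). The highest sum was 1.57 times the lowest (H2B over H4, 1.51 to 1.63). In reads per codon, H2A (124, 123 to 126) and H3 (124, 122 to 125) were alike within their intervals, and H4 (99, 97.1 to 101) and H2B (91.3, 89.7 to 93.0) were lower.

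H2B and H2A therefore changed places between footprints and reads. The H2B sum was 1.36 times that of H2A in footprints (1.31 to 1.40) and 0.734 times in reads (0.717 to 0.752). H4 over H3 was 0.812 in footprints (0.780 to 0.845) and 0.801 in reads (0.781 to 0.821), so that the sums kept their proportion. The single couples did not, and shifted in opposite directions. HHF1 over HHT1 was 0.613 in footprints and 0.758 in reads, and HHF2 over HHT2 1.00 and 0.840. All 4 genes of H2A and H2B together had 25.4 footprints per codon and all 4 genes of H3 and H4 21.1, a ratio of 1.20 (1.17 to 1.24), while their reads per codon were 54.0 and 56.5, a ratio of 0.955 (0.940 to 0.971).

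**Figure D2:**
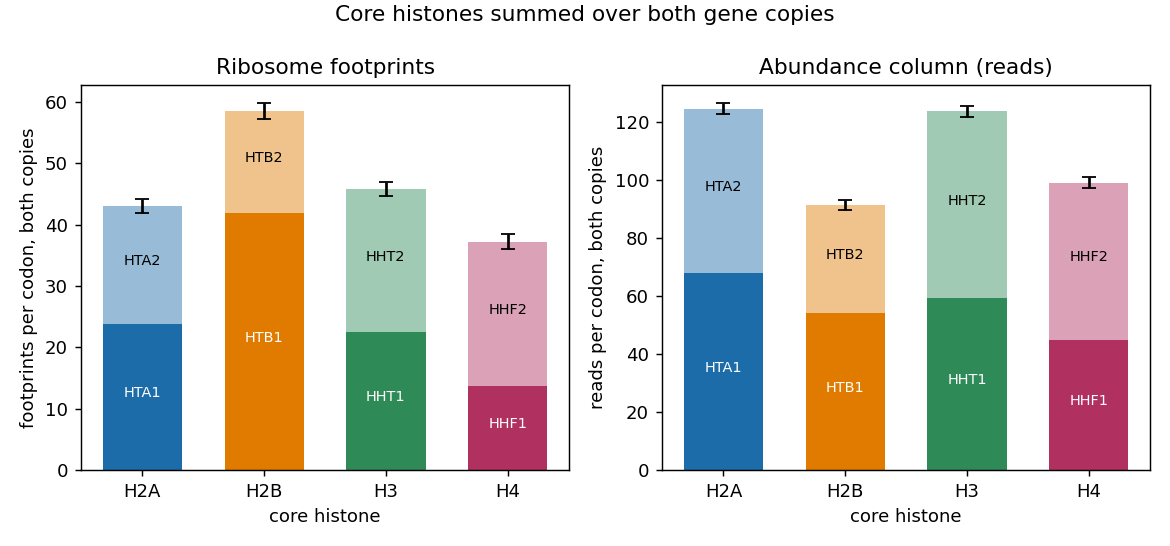
Footprints per codon (left) and reads per codon (right) of the 4 core histones, stacked over both gene copies, with exact Poisson 95% intervals of the sum. H2B is highest in footprints (58.5) and lowest in reads (91.3), and HTB1 alone gives 41.8 of its footprints.

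The 4 couples are divergent in the RefSeq annotation of R64, the assembly called sacCer3. HTB1 (YDR224C, chromosome IV, 914317 to 914712, minus strand) and HTA1 (YDR225W, 915530 to 915928, plus strand) lie 817 bases apart. HTA2 (YBL003C, chromosome II, 235394 to 235792, minus) and HTB2 (YBL002W, 236492 to 236887, plus) are 699 bases apart. HHF1 (YBR009C, chromosome II, 255373 to 255684, minus) and HHT1 (YBR010W, 256331 to 256741, plus) are separated by 646 bases, and HHT2 (YNL031C, chromosome XIV, 575640 to 576050, minus) and HHF2 (YNL030W, 576727 to 577038, plus) by 676. HTZ1 (YOL012C) is on chromosome XV, 303579 to 303983, minus strand, and HHO1 (YPL127C) on chromosome XVI, 308828 to 309604, minus strand.

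Partners of a couple did not have equal levels. In footprints per codon HTB1 was above HTA1 (1.76, 1.68 to 1.84) and HTB2 below HTA2 (0.863, 0.814 to 0.914). In reads per codon the H2B gene was below its H2A partner in both couples, with HTB1 over HTA1 at 0.799 (0.774 to 0.824) and HTB2 over HTA2 at 0.656 (0.633 to 0.680). HHF1 had 0.613 times the footprints per codon of HHT1 (0.575 to 0.652), and HHF2 over HHT2 was 1.00 (0.951 to 1.06). The H4 gene was below its H3 partner in reads in both couples, HHF1 over HHT1 at 0.758 (0.731 to 0.786) and HHF2 over HHT2 at 0.840 (0.813 to 0.869).

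Whole couples differed as well. The HTA1-HTB1 couple held 32.8 footprints per codon and the HTA2-HTB2 couple 18.0, a ratio of 1.82 (1.76 to 1.89), against a ratio of 1.3 in reads (1.27 to 1.33). The HHT1-HHF1 couple held 18.7 footprints per codon and the HHT2-HHF2 couple 23.4, a ratio of 0.799 (0.768 to 0.831), with 0.885 in reads (0.864 to 0.906).

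The copies of a core histone were close to equal for H2A and H3 and unequal for H2B and H4. HTA1 gave 55.2% of H2A footprints (53.9 to 56.5%, exact binomial) and 54.5% of reads (53.8 to 55.3%). HHT1 gave 49.0% of H3 footprints (47.7 to 50.2%) and 47.9% of reads (47.2 to 48.7%). For both of these histones the share in footprints was near the share in reads. HTB1 gave 71.5% of H2B footprints (70.5 to 72.5%), against 59.4% of reads (58.5 to 60.2%). HHF1 gave 37.0% of H4 footprints (35.4 to 38.5%), against 45.3% of reads (44.4 to 46.3%).

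How well reads of the copies were separated is not known, since the sources used here do not say what was done with reads matching more than 1 gene. The codon tallies show how alike they are. Copies of H2A, of H3 and of H4 have the same amino acid composition, with 0 residues to exchange, and those of H2B differ in 3. Their codon tallies differ in at least 16 codons for H2A, 19 for H2B and 18 for H3, and in at least 6 for H4. These are lower bounds, since equal tallies can hide differing places, and the length of shared stretches was not measured, so they do not say for which histone the split is least certain. Codons found in only 1 copy of a pair held 70 footprints in HTB1 and 101 in HTB2, 147 in HHT1 and 107 in HHT2, 31 in HTA1 and 19 in HTA2, and 0 in HHF1 and 13 in HHF2.

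The footprint to read ratio set the copies of H2B and of H4 apart. HTB1 had the highest histone ratio, 4.38 (4.23 to 4.54), and HTB2 had 2.55 (2.42 to 2.68). The ratio of HTB1 was 1.72 times that of HTB2 (1.64 to 1.81). HHF1 was at 1.74 (1.64 to 1.85) and HHF2 at 2.46 (2.35 to 2.59), so that HHF1 had 0.707 times the ratio of HHF2 (0.662 to 0.755). For the other core genes the ratios were 1.99 (1.91 to 2.07) for HTA1, 1.94 (1.85 to 2.03) for HTA2, 2.16 (2.07 to 2.25) for HHT1 and 2.06 (1.98 to 2.15) for HHT2. In each of these last pairs the copies differed by no more than counting error, HTA1 over HTA2 at 1.03 (0.976 to 1.08) and HHT1 over HHT2 at 1.04 (0.993 to 1.10). The linker histone gene HHO1 had 2.49 (2.29 to 2.71) and the variant gene HTZ1 the lowest ratio of the family, 1.49 (1.32 to 1.68).

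All 10 histone genes had a ratio above 1, as had 44.9% of the 2939 genes tested, and 6 had a ratio above 2, as had 12.5% of the genes tested. Ratios were higher in shorter genes, and histones are short, so they were also read against the 863 tested genes of 90 to 270 codons. Of these, 90.3% had a ratio above 1 and 33% a ratio above 2. On the log2 scale the histone median was 1.08, the median of genes of like length 0.75 and that of all tested genes -0.14. Among the 46 genes of like length whose reads per codon also lay in the range of the core histones (37.1 to 67.9), the median was 1.00, 87% were above 1 and 50% above 2. Those 46 include the 8 core genes, of which 8 were above 1 and 5 above 2, with a median log2 ratio of 1.08. Of the 38 others, 84.2% were above 1 and 47.4% above 2, and their median was 0.90. HTZ1 and HHO1 had fewer reads per codon than any of these genes.

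Single members departed from that level. HTB1 was 11th of the 863 genes of like length and highest of the 46 with like reads, and its log2 ratio of 2.13 lay 1.14 above a smooth trend on length. HHO1, whose 259 codons make it the longest of the family, had a log2 ratio of 1.32, which was 0.96 above the trend and 135th of the 863. HTB2 was 0.35 above the trend, and HHF2, HHT1, HHT2 and HTA1 were between 0.00 and 0.17 above it. HTA2 (-0.037), HHF1 (-0.33) and HTZ1 (-0.40) lay below. HHF1 ranked 403rd and HTZ1 529th of the 863.

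**Figure D3:**
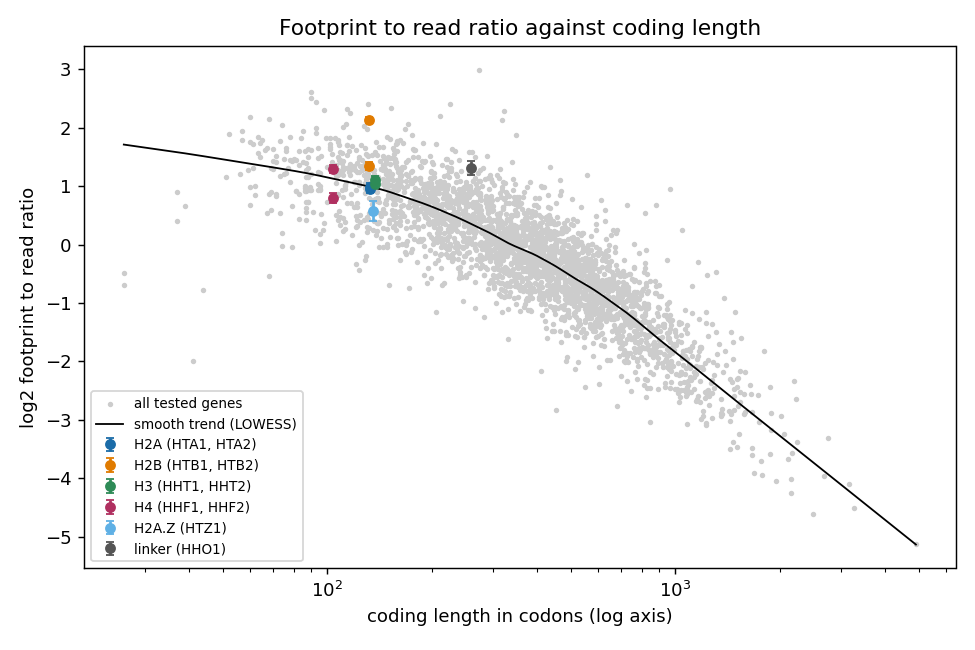
Log2 footprint to read ratio against coding length in codons (log axis) for the 2939 tested genes, with a smooth trend and the 10 histone genes in colour with exact 95% intervals. HTB1 at 2.13 and HHO1 at 1.32 stand 1.14 and 0.96 above the trend, and HTZ1 at 0.58 lies under it, at a difference of -0.40.

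Codon choice separated the core genes from the variant and the linker. Of 23 codons preferred in highly expressed yeast genes, the core genes together had 82.9% of their sense codons, from 78.0% in HTA2 to 86.4% in HHF1. HTZ1 had 51.5% and HHO1 53.5%. The median tested gene had 48.2% and the 90th percentile was 70.1%, so that each of the 8 core genes was above it. In the core genes AGA made up 90.4% of arginine codons, against 52.6% in all tested genes, and AAG 63.5% of lysine codons, against 46.1%. The codons CGC, CGG, TGC and TGG do not occur in any of the 10 genes.

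A codon value was then used, the footprints per occurrence of a codon over the mean footprints per codon of its own gene, so that 1 is an average codon. If each codon of a gene had the mean value it had over all tested genes, the core genes would average between 0.893 (HHF1) and 0.929 (HHT2), against a median gene of 0.994 and a 10th percentile of 0.916. The same sum was 1.04 for HTZ1 and 1.03 for HHO1. By this sum all 8 core genes were below the median gene, and the variant and the linker were above it.

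**Figure D4:**
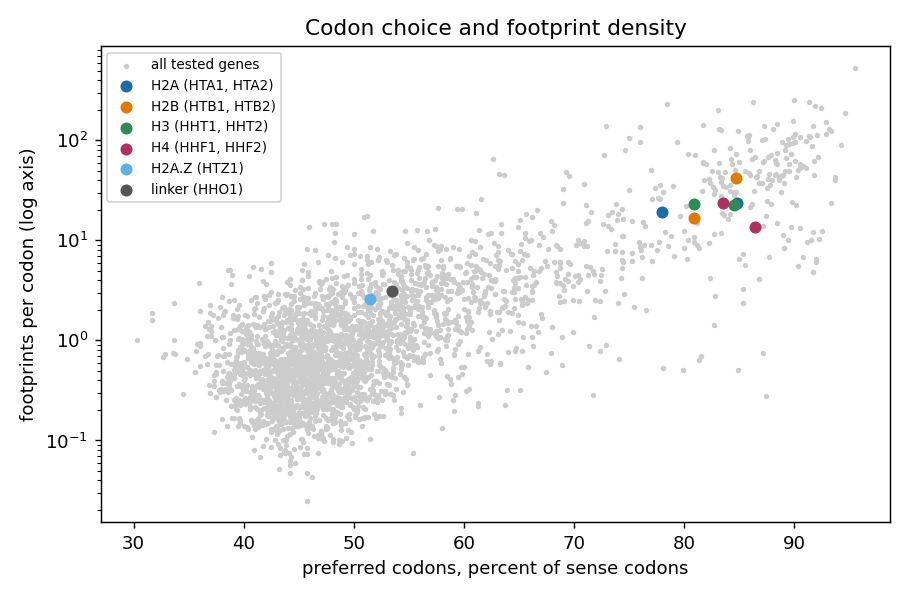
Footprints per codon (log axis) against the share of preferred codons for the 2939 tested genes, with the histone genes in colour. The core genes lie between 78.0% and 86.4% preferred codons, and HTZ1 (51.5%) and HHO1 (53.5%) lie apart at 2.58 and 3.09 footprints per codon.

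Within the histone genes, preferred codons were less set off from the others than in the whole table. Over the 10 genes preferred codons averaged 0.966 and the other sense codons 1.08, against 0.853 and 1.14 in all tested genes. In the 8 core genes both were near the gene mean, 0.999 for preferred codons and 0.972 for the others. Since 82.9% of core sense codons are preferred, scaling to the gene mean holds the first of these near 1. In the median tested gene 48.2% are preferred, so the preferred values of the sets are not on a like footing. The same scaling enters each codon value set against all tested genes. Of the 37 sense codons with at least 10 occurrences in the family, 17 had a higher value in the histone genes than in all tested genes. Over these 37 codons the histone values and those of all tested genes had a Spearman rho of 0.570, a description in which histone genes count on both sides.

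Lysine and arginine, whose positive charges bind DNA, are common here. Lysine made up 13.5% of the sense codons, against 7.43% in tested genes, and arginine 7.81%, against 4.28%. With genes scaled to their own mean, the lysine codon AAA had the highest value of the 37, 1.65 (1.57 to 1.74), against 0.967 in all tested genes. Intervals of such scaled values take their relative width from the footprints summed over the genes. Genes weigh in the value by occurrences, so the interval is too narrow where genes with few footprints hold many of them. With counts pooled over the histone genes, which gives the core genes more weight, AAA was at 1.19. ATC (1.48), TTG (1.24) and AGA (1.23) were above it. So were others, such as TCT with 1602 footprints on 58 codons and GAA with 1569 on 59, against 1544 on 74 for AAA. Scaled to each gene's own mean, AAA was above 1 in 6 of 10 genes, a share that was not counted in all tested genes. It ran from 0.423 in HHT1 to 3.54 in HHT2 with a median of 1.08. The other lysine codon, AAG, was at 1.01 (0.966 to 1.05), against 0.795, with 0.171 in HHT2 and 3.29 in HHF2 as extremes. The main arginine codon AGA, with 89 occurrences, was at 0.999 (0.955 to 1.04), against 0.996, and ran from 0.690 in HHF1 to 1.62 in HTB2 over the 9 genes that use it. AGA thus ran over a narrower range between histone genes than either lysine codon, while its pooled value was higher than its scaled one. The minor arginine codon AGG, with 9 occurrences, was at 1.10 (0.911 to 1.32), against 1.55, and at 0.726 with pooled counts.

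After AAA, the highest scaled values were those of glycine GGC (1.42, 1.02 to 1.92, in HTZ1 and HHO1 alone), isoleucine ATC (1.33, 1.25 to 1.42), valine GTG (1.31, 1.10 to 1.56) and leucine TTG (1.24, 1.18 to 1.3). In all tested genes GGC was at 1.39, ATC at 0.758, GTG at 1.17 and TTG at 1.01, so that the GGC value was within its interval of the table's. Pooled counts put GGC at 0.239 and GTG at 0.739, both below 1. Pooling divides by the mean of all 10 genes, and HTZ1 and HHO1 have the fewest footprints per codon of them. A codon that occurs in these genes alone, such as GGC, is thus put low by construction. Of 130 GTG footprints, 7 were on 3 codons of HTZ1 and 17 on 5 codons of HHO1, so the GTG interval is too narrow. ATC was high through H4, with 3.76 in HHF1 and 3.86 in HHF2, and its median over the 10 genes was 0.679. TTG was above 1 in 7 of 10 genes. The lowest were phenylalanine TTT (0.395, 0.293 to 0.521), aspartate GAT (0.492, 0.430 to 0.560), arginine CGT (0.559, 0.394 to 0.771), isoleucine ATT (0.613, 0.556 to 0.674) and asparagine AAT (0.671, 0.560 to 0.798). In all tested genes TTT was at 0.684, GAT at 0.887, CGT at 0.979, ATT at 0.700 and AAT at 0.694, so that AAT was within its interval of the table's value. GAT, which all 10 genes use, was below 1 in 8 of them. For TTG and GAT the share of all tested genes on the same side of 1 was not counted. Pooled counts put CGT at 0.210 and TTT at 0.258.

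The lysine codons of H3 differed widely between its copies. HHT2 has 7 AAA codons with 580 footprints and 9 AAG codons with 36, whereas HHT1, with the same amino acid composition, has 2 AAA codons with 19 footprints and 14 AAG codons with 326. AAA thus took 18.1% of the HHT2 footprints, and lysine as a whole stood at 1.65 in HHT2 and 0.960 in HHT1. In H4, 7 AAG codons of HHF2 held 540 footprints (22.1% of the gene, value 3.29) and the 7 AAG codons of HHF1 held 179 (value 1.86). In the lysine-rich HHO1, where 58 of 258 sense codons encode lysine, 21 AAA codons held 159 footprints (value 2.45) and 37 AAG codons held 83 (0.726). Both H2B genes had AAG near their mean, at 0.741 in HTB1 and 1.21 in HTB2.

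The copies of each core histone were set side by side residue by residue, on the scale of each gene's own mean. H2A copies were alike, with all 18 residues that occur within 2-fold of each other. In H2B, 3 of 18 residues were more than 2-fold apart. These were serine, leucine and aspartate. Serine stood at 1.66 in HTB1 and 0.762 in HTB2, since the 11 TCT codons of HTB1 held 1048 footprints, 19.0% of that gene, while leucine was at 0.530 in HTB1 and 1.18 in HTB2 and aspartate at 0.406 in HTB1 and 0.922 in HTB2. In H3, 2 residues were more than 2-fold apart, and methionine had 0 footprints in HHT2. The largest of these was histidine, 0.312 in HHT1 and 1.77 in HHT2, from the same codon, CAC, at 2 places, and the other was the single asparagine, AAC with 127 footprints in HHT1 (5.65) and AAT with 35 in HHT2 (1.5). In H4, 3 residues were more than 2-fold apart, and methionine had 0 footprints in HHF1. The single proline, a CCA codon in both copies, was farthest, with 7 footprints (0.509) in HHF1 and 153 (6.52) in HHF2. Histidine (0.763 in HHF1, 0.213 in HHF2) and asparagine (1.82 in HHF1, 0.597 in HHF2) were the others. Isoleucine was at 2.30 in both copies. Which stretch of a gene these footprints lay on is not known, since the counts are summed over the places of a codon.

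**Figure D5:**
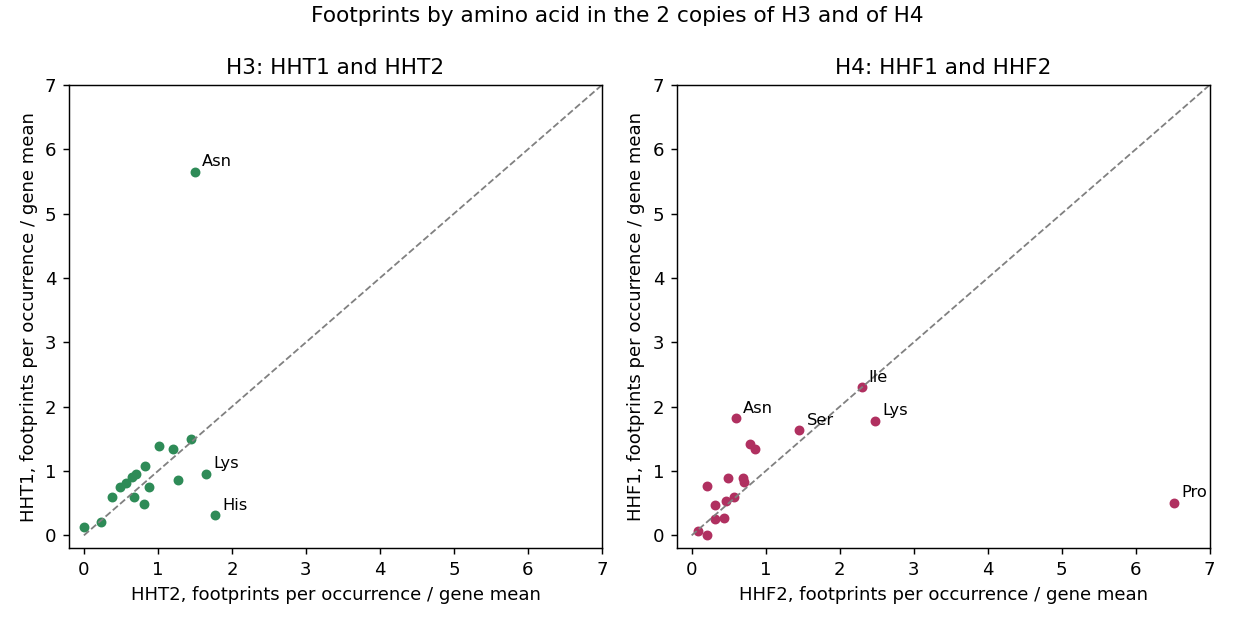
Footprints per occurrence over the gene mean for each amino acid, HHT1 against HHT2 (left) and HHF1 against HHF2 (right), with the line of equality dashed. Of 18 residues, 15 in H3 and 14 in H4 lie within 2-fold of the line, while asparagine (5.65 and 1.5) and histidine (0.312 and 1.77) in H3 and proline (0.509 and 6.52) in H4 lie away from it.

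Some single codons stood well above their gene. Of 364 combinations of a histone gene and a sense codon, 13 were over 3 times the gene mean (3.57%), against 7.72% in all tested genes and 7.23% in genes of like length, many of which have few footprints. In the 8 core genes 9 of 266 were (3.38%), against 4.33% in the 187 other genes of like length with at least as many footprints as HHF1. Besides those already given they were the rare arginine codon CGA in HTZ1 (16 footprints on 1 codon, 6.21), valine GTT in HTZ1 (14 on 1, 5.43), the rare proline codon CCG in HHO1 (28 on 2, 4.53), arginine AGG in HTB2 (71 on 1, 4.27), serine TCC in HTA1 (90 on 1, 3.78), leucine CTG in HTZ1 (25 on 3, 3.23) and tyrosine TAT in HTB1 (133 on 1, 3.18). The codon with the most footprints took between 9.28% of a gene (leucine TTG in HTA2) and 22.1% (AAG in HHF2), with a median of 16.1% over the 10 genes. The median of the 8 core genes was also 16.1%, and that of the 187 other genes 12.3%.

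Some codons carried nothing. Of 374 combinations of gene and codon, 25 had 0 footprints, and 9 of them were in core genes. The largest gaps were the 2 ACC codons of HHT2, where 46.8 footprints would stand at the gene mean, and the 2 CGT codons of HHF1, where 27.5 would. In the core genes 3.28% of combinations were at 0, against 4.04% in the 195 genes of like length and depth, the core genes included, and 22.7% in all genes of like length.

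Start codons held few footprints in the 7 genes where they could be told apart, and stop codons lay above the gene mean in 5 of 10 genes. The median tested gene with 1 stop codon was above its own mean too (1.69), so this count does not set the histone genes apart. Start codons of other genes were not examined, so whether their low counts are particular to histones is not known. ATG occurs once in 7 of the histone genes, where it can only be the start codon, and there it held 1 footprint in HTA1, 1 in HTA2, 3 in HHT1, 0 in HHT2, 0 in HHF1, 5 in HHF2 and 0 in HTZ1, against gene means of 2.58 to 23.8 footprints per codon. The stop codon held 116 footprints in HTB1 (2.77 times the gene mean), 35 in HTB2 (2.10), 33 in HHF1 (2.40), 56 in HHF2 (2.39), 33 in HTA2 (1.71) and 19 in HTA1 (0.799). HTB1, HTB2, HHF1, HHF2, HTA1 and HTA2 end in TAA. HHT1, the only gene of the family with TAG, had 20 (0.890), and HHT2, the only gene with TGA, had 14 (0.599). HTZ1 (2, 0.776) and HHO1 (3, 0.971) end in TAA and had too few footprints to be set apart from their means. The mean stop value was 1.54 in the histone genes, 3.05 in genes of like length and 4.50 in all tested genes with 1 stop codon, and the medians were 1.34, 1.59 and 1.69.

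The genes nearest to the histone median in footprints and reads per codon were found by distance on the log2 scale over both measures. The closest was the adenylate kinase gene ADK1, with 20.5 footprints and 52.6 reads per codon, a distance of 0.0466. ADK1 (chromosome IV, 916486 to 917154) lies just beyond HTA1. SML1, an inhibitor of ribonucleotide reductase (21.0 and 50.7), the thioredoxin gene TRX1 (23.2 and 55.0), the 14-3-3 protein gene BMH1 (20.2 and 60.1) and the cell wall enzyme gene BGL2 (19.2 and 59.2) followed.

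Genes that act on histones had fewer footprints per codon than the core histone genes, with FPR3 highest of those listed at 3.53. Of 12 genes listed as regulators of histone transcription, 11 were in the table and 2 had at least 100 footprints and reads, the chaperone and corepressor ASF1 with 120 footprints and 276 reads (log2 ratio 1.31) and HPC2, a subunit of the HIR repressor, with 152 and 576 (0.58). The other 9 had 42 to 93 footprints from 856 to 4729 reads, and their log2 ratios ran from -3.72 to -1.13. The median log2 ratio of the tested pair was 0.95, and 1.26 above the trend on length. The pair had fewer reads than any of the other 9. With so few reads a gene reaches 100 footprints only at a higher ratio than theirs, so the pair does not describe the list. Of 17 chaperone and import genes, 16 were in the table and 10 were tested, with 4 above a ratio of 1, 1 above 2 and a median log2 ratio of -0.17, where 44.9% of all tested genes were above 1 and 12.5% above 2. These genes are longer than the histones, and against the trend on length their median was 0.29, on the other side of 0. The log2 ratios of the tested 10 ran from the nucleolar prolyl isomerase FPR3 (1.01) to the transcription elongation factor SPT6 (-2.35). Of the chaperone and import genes under the count minimum, SCM3 was at 1.18 and the others ran from -2.52 (KAP114) to -0.44 (RLF2). Of the SWR1 complex, which places H2A.Z, 3 of 10 genes in the table were tested and 0 were above 1. They were RVB1 at -0.13, RVB2 at -0.29 and BDF1 at -0.76, with a median of 0.28 against the trend on length. Of the 7 genes under the count minimum, SWC5 (ratio 2.10, 83 footprints), VPS71 (1.92, 83 footprints) and YAF9 (1.28, 99 footprints) were above 1. SWC4 (0.655), VPS72 (0.565), ARP6 (0.563) and SWR1 (0.0734) were below it. Of 16 histone modifying and other histone fold genes 6 were tested and 1 was above 1, with the ubiquitin conjugating enzyme RAD6, which acts on H2B, highest at 0.73 and the deacetylase RPD3 lowest at -0.94. The median of these 6 was -0.59, and -0.010 against the trend on length. Of the genes of this list under the count minimum, all but CSE4 had log2 ratios below that median, from -3.11 (SET1) to -0.73 (ESA1). With few reads a gene reaches 100 footprints only at a higher ratio, so the tested 6 do not describe the list. CSE4, the H3 variant of the centromere, had 95 footprints and 385 reads (0.413 and 1.67 per codon) and a log2 ratio of 0.49, under the minimum of 100 footprints. Most of these genes are long, with list medians of 415 to 498 codons among those tested, against 104 to 259 in the histones.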

How the data were processed

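Footprint columns hold raw counts that the authors deposited for each of 64 codons of a gene, summed over all its places. A further 64 columns, whose header word can be read as total RNA, hold codon occurrences per the values: their sum times 3 is the annotated length of all 10 histone genes. The authors' abundance column is headed FPKM, but its values behave as CPM deposited without division by length: 100% are whole multiples of 0.0459 CPM within 0.001 reads. This multiple was used to recover reads. Per the submitters' processing notes, cutadapt, Bowtie2, HISAT2 and HTSeq and the build sacCer3 were used. How strand, multi-mapping reads and duplicates were handled is not stated in those notes. Total RNA counts per codon are not analysed here, and 0 columns were left unmapped.

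Symbols and coordinates are from RefSeq (R64). Counts have exact Poisson 95% intervals, and ratios the exact binomial (Clopper-Pearson) interval conditional on their sum. Both cover counting error only, and nothing states whether PCR copies were removed. Scaled codon values over the family were given the relative Poisson interval of their summed footprints. That interval is not exact and can be too narrow. The trend on length is LOWESS over 30% of genes. Python 3.11.15, pandas 2.3.3, scipy 1.17.1 and statsmodels 0.14.6 were used, and the steps were tested on simulated data. No p-value was computed with 1 library of each kind. The members and lists were chosen with earlier results of these data known. Named were the 10 members, the extremes of each list, the 5 nearest genes, the 5 highest and 5 lowest codons with 10 or more occurrences, and lysine and arginine codons. Others were chosen after their values were seen, such as single codons of a gene, the pooled counts of TCT and GAA, and list genes under the count minimum, CSE4 among them. So were the 38 and 187 other genes set beside the core genes. Alternatives were the count minimum (30, 1000 or none), stop codons, the top codon, the unit of the abundance column, totals, scaling, length trend, summed copies, pooled counts and capped values.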

Additional observations from a re-analysis of the deposited data

How the results depend on the processing

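No paired analysis was possible because each kind of library has 1 sample, which also leaves no library that could be dropped. The cause of the changes below was not tested, except where a change follows by construction. A trend or a unit with length in it changes ratios of short genes. Pooled counts lower the values of codons that occur mainly in HTZ1 and HHO1, the members with the fewest footprints per codon. If the abundance values are read as already divided by length, this put the histone median log2 ratio at 3.21, 0.75 above genes of like length, with 10 genes above a ratio of 2. Subtracting the smooth trend put it at 0.10, 0.056 above like length, with 1 gene above 2, and turned HTA2 (-0.037), HHF1 (-0.33) and HTZ1 (-0.40) negative. With the median gene set to 0 it was 1.21. The distance from genes of like length (0.32) was 0.43 with a minimum of 30 counts, 0.45 with none and 0.049 with 1000. A minimum of 1000 leaves out HTZ1 and HHO1, but the histone median stayed at 1.08 with each minimum. The distance thus changed through the median of the genes of like length. Without the top codon of each gene, H4 over H3 was 0.772, H3 over H2A 1.02 and H2A and H2B over H3 and H4 1.26, and the footprint shares were 52.8% for HTA1, 69.4% for HTB1, 50.5% for HHT1 and 39.2% for HHF1. With only codons equally frequent in both copies they were 58.7% for HTA1, 66.0% for HTB1, 51.6% for HHT1 and 34.8% for HHF1, so the order of HHT1 and HHT2 is not settled. ATC fell to 0.904 with values capped at the 90th percentile of the codon (a cap on values relative to the gene mean), and pooled counts put CGA at 0.909, GGC at 0.239 and GTG at 0.739. The other 36 summary values stayed within their intervals or within 1.5 times their count. Within that bound, codons higher in the histone genes than in all tested genes were 13 of 37 with pooled counts and 23 with capped values, against 17. Histone genes with a ratio above 1 went from 10 to 7 with the trend subtracted. Of the values of single genes and codons, 67 stayed within their intervals and 48 moved. Of those 48, 9 were codon values, and 3 of these 9 crossed 1: AGG (0.726) and AGA (1.23) with pooled counts and AAG (0.889) with capped values.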
